A study of Mus musculus with 4 samples.

Results

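Cytosolic chaperone genes were followed across 4 cultures of immortalized mouse embryonic fibroblasts: 37 genes of 23366 in the deposited table, chosen by gene symbol. They are 8 subunits of the chaperonin, 5 of prefoldin, Hsp90 with its co-chaperones (8), Hsp70 and Hsp110 (7), J-domain proteins (5), the small heat shock proteins Hspb1 and Hspb8 with Bag3 (3), and the transcription factor Hsf1. The cultures carried empty vector, Myc, MycN or the protein called Minimal Myc. All 4, vector included, received Cre recombinase from an adenovirus, an enzyme that removes DNA lying between its recognition sites, and were harvested after a recovery labelled 48 with no unit. The series design describes the cells without an added protein as having Myc deleted. The sources used here do not say whether a culture came from 1 clone. RNA was enriched for poly(A) tails and sequenced, 1 library per culture. No difference below therefore has a replicate check, and none was tested.

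Chaperones bind unfolded proteins and help them reach or regain their fold. The chaperonin, called TRiC or CCT, is a double ring of different subunits that encloses actin, tubulin and other clients, and prefoldin hands it new chains. Hsp70 works with J-domain proteins, which bring clients and trigger ATP hydrolysis, and with Hsp110 proteins, which exchange its nucleotide. Hsp90 acts later in folding, with co-chaperones that set its ATP cycle and choose its clients. Heat and other stress release Hsf1, which binds heat shock elements (repeats of nGAAn) in the promoters of the inducible genes, while other chaperone genes are transcribed in all growing cells.

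Values are FPKM, fragment counts that the authors normalised for transcript length and library total, so levels of different genes can be set side by side per length. A difference is that of log2(FPKM + 1), and a gene is counted when it differs by at least 2-fold. Over the 11640 genes whose mean reached 1 FPKM, the median difference from vector was 0.47 with Myc, 0.42 with MycN and 0.47 with Minimal Myc, and each gene is also read against that shift. Myc itself was 22.2 FPKM with vector, 141 with Myc, 4.36 with MycN and 32.6 with Minimal Myc, so its deletion in the vector culture is not shown by these values. Mycn was 0.390, 0.275, 178 and 95.9 FPKM in the same order. Of 10 fibroblast markers all were above 1 FPKM in every library, summing to 2612 to 3558 FPKM. Of 6 epithelial and 4 endothelial markers 0 reached 1 FPKM (sums of at most 0.663 and 1.18), and of 6 immune markers 2 did, Cd68 and Csf1r, with Ptprc at 0.0215 FPKM or lower and summed levels of 3.01 to 8.18. The vector library also stood apart in a small RNA, Mir5109, at 185861 FPKM against 6331 to 26320 in the others, and in the nuclear RNA Malat1, at 381 FPKM against 64.0 to 192. The part of this in the differences from vector was not tested. A bulk library cannot separate fewer cells of a kind from less RNA per cell.

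All 37 genes passed the filter. Their median level was 60.3 FPKM with vector, 115 with Myc, 85.4 with MycN and 111 with Minimal Myc. Vector was the lowest of the 4 libraries for 30 of the 37 genes, against 68.1% of all genes, Minimal Myc for 4 (12.3%), MycN for 3 (11.8%) and Myc for 0 (7.8%). Myc was the highest for 23 of 37, against 29.6% of all genes, followed by Minimal Myc with 9 (35.8%), MycN with 4 (29.0%) and vector with 1 (5.53%). In the second deposited table, in which the authors multiplied each library by 1 factor, Myc was the highest for 33 of 37 genes and for 83.1% of all genes.

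**Figure D1:**
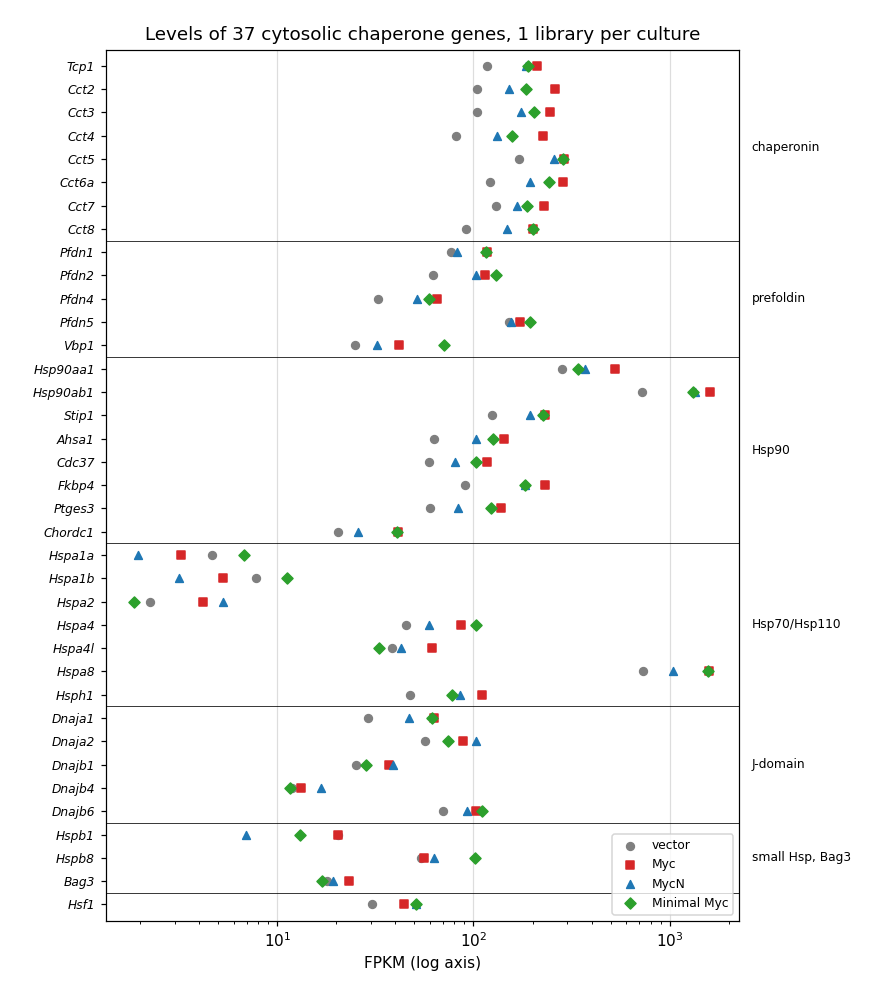
FPKM on a log axis for each of the 37 genes, grouped by role, with 1 point per library. Hsp90ab1 and Hspa8 stand near or above 720 FPKM in every library, whereas Hspa1a, Hspa1b and Hspa2 lie between 1.87 and 11.2.

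Levels above vector were found for 34 of 37 genes with Myc, 34 with MycN and 32 with Minimal Myc, beside 83.5%, 81.8% and 83% of all genes. By 2-fold, 12 of the 37 were higher in Myc than in vector and 0 lower, beside 11.2% and 1.56% of all genes. In MycN 1 was higher and 2 were lower (all genes 7.65% and 1.86%). In Minimal Myc 8 were higher and 0 lower (13.6% and 1.68%). In unscaled FPKM the share called higher was thus above that of all genes in Myc and in Minimal Myc and below it in MycN, whereas in the scaled table it was above that of all genes in MycN too: there 34, 16 and 24 of the 37 genes were higher in Myc, MycN and Minimal Myc, beside 76.8%, 26.7% and 32.7% of all genes. The median difference over the 37 genes was 0.88, 0.55 and 0.78 in the same order, beside 0.47, 0.42 and 0.47 over all genes. Abundant genes as a whole were shifted more: over 3914 genes whose mean reached 20 FPKM the medians were 0.62, 0.47 and 0.64, against 0.93, 0.60 and 0.87 for the 31 chaperone genes above that level. Among those abundant genes 17.7%, 7.54% and 17.7% were at least 2-fold higher. With the all-gene median subtracted, 30, 23 and 26 of the 37 genes lay above 0, beside 5820 of all 11640 genes by definition. So did 2486, 2179 and 2606 of the 3914 abundant genes, and 29, 21 and 26 of the 31 chaperone genes among them. After that subtraction 0 of the 37 were 2-fold higher in any of the 3 libraries, beside 1.87%, 1.86% and 3.71% of all genes. On that scale 0, 3 (Hspa1a, Hspa1b and Hspb1) and 1 (Hspb1) were 2-fold lower, beside 4.38%, 4.19% and 4.68%. Several genes stood close to the 2-fold threshold: 6, 5 and 10 lay within 0.1 (log2) of it, in Myc, MycN and Minimal Myc. The 3 comparisons share the vector library and are not independent of each other.

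**Figure D2:**
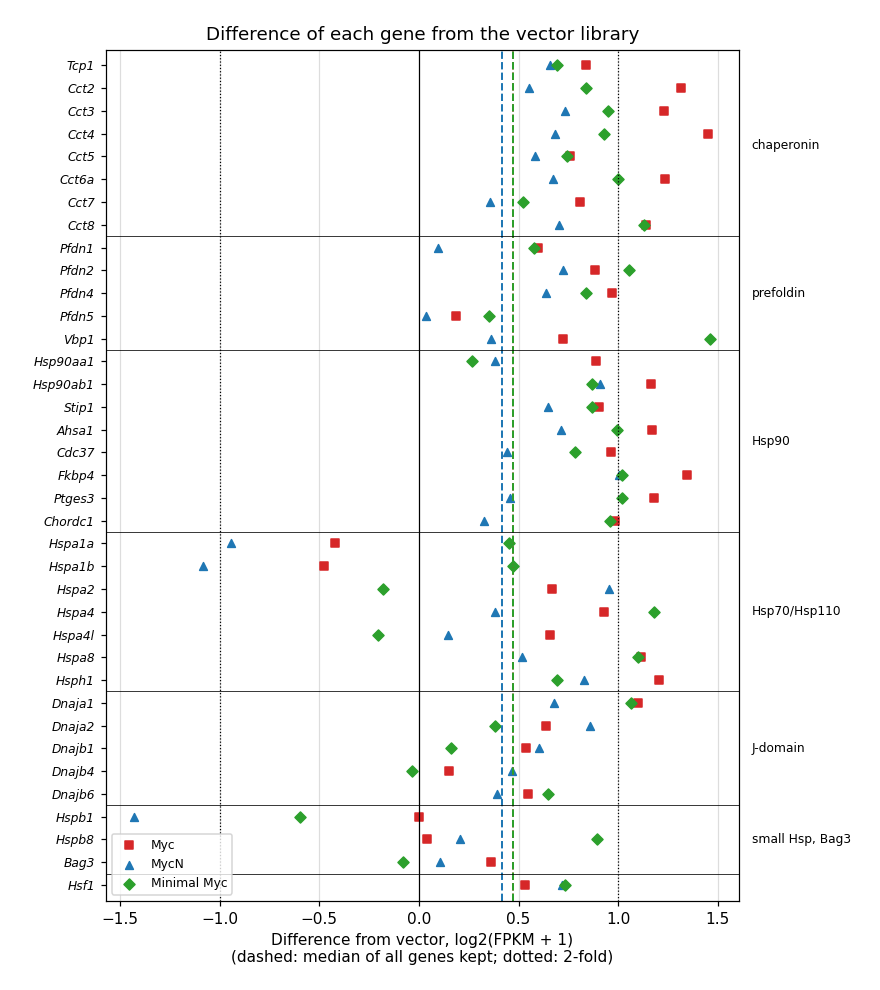
Difference of each gene from vector in log2(FPKM + 1), with 1 point per library. Dashed lines mark the median over all genes (0.42 for MycN; 0.47 for Myc and Minimal Myc, whose lines overlie) and dotted lines mark 2-fold; chaperonin and Hsp90 genes stand mostly right of the dashed lines and Hspb1 far left of them in MycN.

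**Figure D3:**
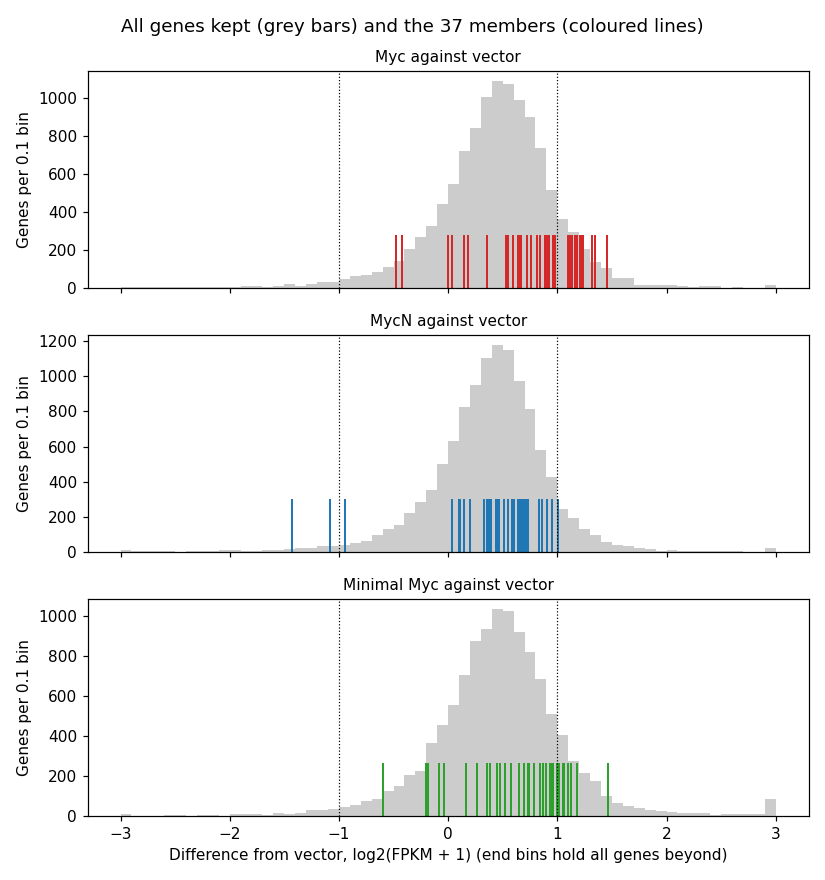
Number of genes per 0.1-wide bin of the difference from vector (grey bars, 11640 genes; the end bins hold all genes beyond 3 either way) and the 37 chaperone genes as coloured lines. In Myc the lines crowd the right side of the grey distribution up to 1.45, with Hspa1a and Hspa1b apart at -0.42 and -0.48.

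The chaperonin subunits all differed from vector in the same direction. Together the 8 summed to 921 FPKM with vector, 1949 with Myc, 1410.5 with MycN and 1653 with Minimal Myc. In the unscaled and the scaled table, every subunit was lowest in vector and highest in Myc, and every subunit was higher in Minimal Myc than in MycN. The differences from vector ran from 0.76 to 1.45 in Myc, from 0.35 to 0.73 in MycN and from 0.52 to 1.13 in Minimal Myc. All 8 lay above the all-gene median in Myc and Minimal Myc, and all but Cct7 did in MycN. Single subunits show the spread.

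Cct4 was 81.8 FPKM with vector, 226 with Myc, 132 with MycN and 157 with Minimal Myc. It had the largest difference of all 37 genes in Myc, 2.76 times vector (log2 difference 1.45). Cct2 was 104, 260.2, 153 and 186 FPKM in the same order. In unscaled FPKM Cct4 stood at 0.586 of its Myc level in MycN and 0.695 in Minimal Myc, and Cct2 at 0.587 and 0.716. Cct8 was 91.3 FPKM with vector, 202 with Myc, 149 with MycN and 201 with Minimal Myc, with Minimal Myc at 0.994 of Myc. Cct5 was the most abundant subunit, at 171 FPKM with vector, 291 with Myc, 257 with MycN and 288 with Minimal Myc. Tcp1, the founding subunit of the complex, was 117, 210.1, 185 and 189.6 FPKM. Cct5 and Tcp1 differed less between the added proteins than Cct2 and Cct4 did. Cct3 and Cct6a were 2.35 and 2.36 times vector in Myc, and Cct7 was 1.76 times. In all, 5 of 8 subunits were at least 2-fold higher with Myc, 0 with MycN and 1 (Cct8) with Minimal Myc. Over all genes 11.2%, 7.65% and 13.6% were higher, so the counts in MycN and Minimal Myc are near those shares. In Minimal Myc Cct6a, at 2.01 times vector in FPKM, stood just under the threshold on the log2(FPKM + 1) scale.

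Subunits enter the assembled ring together, so their levels relative to each other are of interest, and a ratio within a library does not depend on the scaling of libraries. The coefficient of variation over the 8 subunits was 0.240 with vector, 0.136 with Myc, 0.218 with MycN and 0.196 with Minimal Myc. The highest subunit was 2.10 times the lowest in vector and 1.44 times in Myc. The spread was smallest in Myc. There Cct4, the lowest subunit in the 3 other libraries at 0.711 to 0.758 of the mean, was 0.926 of it. Cct5, the highest in all 4 libraries, was 1.49 times the mean in vector, 1.46 in MycN, 1.39 in Minimal Myc and 1.19 in Myc.

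**Figure D4:**
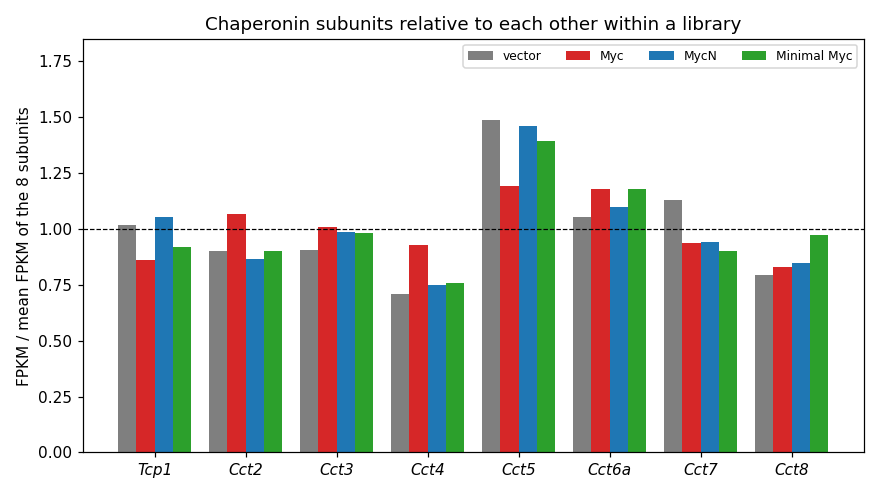
FPKM of each chaperonin subunit divided by the mean of the 8 subunits in the same library (dashed line at 1), with 1 bar per library. In Myc the bars lie between 0.830 and 1.19, and in vector between 0.711 and 1.49.

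Prefoldin genes were also lowest in vector, all 5 of them. Their median differences from vector were 0.72 with Myc, 0.36 with MycN and 0.84 with Minimal Myc, beside 1.18, 0.67 and 0.88 for the chaperonin. By 2-fold, 0, 0 and 2 of the 5 (Pfdn2 and Vbp1) were higher, beside 11.2%, 7.65% and 13.6% of all genes. At those shares 0 of 5 is no result about prefoldin. Pfdn5, a subunit also known as a Myc-binding protein, was 152 FPKM with vector, 173 with Myc, 156 with MycN and 194 with Minimal Myc. It was the least different of the 5 genes and lay below the all-gene median in the 3 comparisons with vector. Pfdn1 was 76.9, 117, 82.3 and 115 FPKM. Pfdn2 was 61.9, 115, 103 and 129.8 FPKM, and Pfdn4 was 32.7, 64.9, 51.5 and 59.3. In unscaled FPKM MycN was below Myc and Minimal Myc in these 4 genes, and Minimal Myc was above Myc in Pfdn2 and Pfdn5 and below it in Pfdn1 and Pfdn4. In unscaled FPKM Vbp1, the subunit also called prefoldin 3, had the order of Pfdn2 and Pfdn5 but stood further above vector in Minimal Myc. It was 24.9 FPKM with vector, 41.8 with Myc, 32.3 with MycN and 70.5 with Minimal Myc, the last being 2.83 times vector (log2 difference 1.46, the largest of the 37 genes in that library) and 1.68 times Myc (a log2 difference of 0.08 from Myc in the scaled table). Relative to the mean of the 4 Pfdn genes of the same library, Vbp1 stood at 0.308 with vector, 0.356 with Myc, 0.330 with MycN and 0.565 with Minimal Myc.

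Hsp90 and its co-chaperones were lowest in vector and highest in Myc, all 8 of them. Hsp90ab1, the constitutive Hsp90, was 719.6 FPKM with vector, 1614 with Myc, 1351 with MycN and 1314 with Minimal Myc. It ranked between 32nd and 50th among the 11640 genes in each library. Hsp90aa1, the inducible form, was 283, 525, 369 and 340.1 FPKM. The inducible form stood closest to vector in Minimal Myc, at 1.20 times. The ratio of Hsp90aa1 to Hsp90ab1 within a library was 0.393 with vector, 0.325 with Myc, 0.273 with MycN and 0.259 with Minimal Myc, so the constitutive form made up more of the pair in each culture with an added protein.

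Fkbp4, an immunophilin that serves Hsp90 on steroid receptors, was 90.2 FPKM with vector, 230.5 with Myc, 182 with MycN and 184 with Minimal Myc. It was the 1 gene at least 2-fold higher in MycN on the log2(FPKM + 1) scale, at 2.02 times vector (log2 difference 1.01). Fkbp4 passed the threshold in Myc and Minimal Myc as well. The low gene Hspa2 was 2.35 times vector in MycN in FPKM but under the threshold on that scale (0.95). Ptges3, the co-chaperone p23 that holds Hsp90 closed, was 60.3, 138, 83.2 and 123 FPKM. Ahsa1, an activator of the Hsp90 ATPase, was 62.8, 142, 104 and 126 FPKM. Ptges3 and Ahsa1 share an order in which MycN lay nearest to vector. The same order held for Cdc37, which brings kinases to Hsp90, at 59.4 FPKM with vector, 117 with Myc, 81.0 with MycN and 103 with Minimal Myc. Chordc1, an Hsp90-binding protein, was 20.4, 41.3, 25.8 and 40.6 FPKM. Stip1, which links Hsp70 to Hsp90, was 124, 232, 194 and 226 FPKM. In this group 4 of 8 genes passed 2-fold above vector in Myc (Hsp90ab1, Ahsa1, Fkbp4 and Ptges3), 1 in MycN and 2 in Minimal Myc (Fkbp4 and Ptges3). Over all genes 11.2%, 7.65% and 13.6% did, and 8 genes are too few to set the counts in MycN and Minimal Myc apart from those shares. Chordc1 in Myc and Ahsa1 in Minimal Myc, at 2.02 and 2.01 times vector in FPKM, stood just under the threshold on the log2(FPKM + 1) scale.

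The Hsp70 family was less uniform. Hspa8, the constitutive Hsp70, was 729 FPKM with vector, 1579 with Myc, 1042 with MycN and 1563 with Minimal Myc. It was at least 2-fold higher than vector in Myc and Minimal Myc, with Minimal Myc at 0.990 of Myc. Hspa1a and Hspa1b, the stress-inducible Hsp70 genes, were low in all cultures. Hspa1a was 4.67 FPKM with vector, 3.23 with Myc, 1.95 with MycN and 6.75 with Minimal Myc. Hspa1b was 7.79, 5.31, 3.15 and 11.2 FPKM. Their order, with Minimal Myc highest and MycN lowest, was shared by no other gene of the 37. The log2 difference of Hspa1b was -1.08 in MycN, at 0.404 of vector, and 0.47 in Minimal Myc, and between Minimal Myc and MycN the ratio was 3.55. In Myc both genes were below vector in unscaled FPKM (log2 differences of -0.42 and -0.48) and above it in the scaled table (0.42 and 0.43), so their direction in Myc depends on the scaling. In MycN they were below vector in both tables. The 2 genes summed to 1.71% of Hspa8 with vector, 0.541% with Myc, 0.489% with MycN and 1.15% with Minimal Myc.

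The values of Hspa1a and Hspa1b are uncertain as separate measurements. Of the 50-base stretches of the Hspa1a transcript, 58.8% also occur in Hspa1b, and the ratio of Hspa1a to Hspa1b was 0.599, 0.608, 0.619 and 0.603 in vector, Myc, MycN and Minimal Myc. A fragment that lies within a shared stretch cannot be assigned to either gene by its sequence. Other chaperone genes share stretches with pseudogenes or further genes, and their values carry the same uncertainty. Hspa8 shares 73.2%, Hspb1 58.9% and Hsp90aa1 58.5% of such stretches, and Dnajb6 30.8%, Dnaja1 30.6%, Pfdn5 27.0% and Ptges3 22.2%.

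The Hsp110 proteins, nucleotide exchange factors for Hsp70, went apart in Minimal Myc. Hspa4 was 45.2 FPKM with vector, 86.8 with Myc, 59.2 with MycN and 104 with Minimal Myc. Its relative Hspa4l was 38.3, 61.1, 42.5 and 33.2 FPKM. In unscaled FPKM Hspa4 was thus highest and Hspa4l lowest in the same library, whereas in the scaled table Hspa4 was highest in Myc and Hspa4l lowest in vector. The ratio of Hspa4l to Hspa4 was 0.849 with vector, 0.705 with Myc, 0.719 with MycN and 0.320 with Minimal Myc. Against vector the difference of Hspa4l in Minimal Myc was -0.20, and 0.15 in the scaled table, so only its place relative to other genes can be read. Hsph1, the heat-inducible Hsp110, was 47.6, 111, 85.4 and 77.6 FPKM and was at least 2-fold higher in Myc. Hspa2, an Hsp70 best known from testis, was 2.26, 4.17, 5.30 and 1.87 FPKM, the highest in MycN and lowest in Minimal Myc (in the scaled table highest in Myc and lowest in vector). At this level the pseudocount matters: its difference between MycN and vector was 0.95 with a pseudocount of 1 and 1.20 with 0.1.

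**Figure D5:**
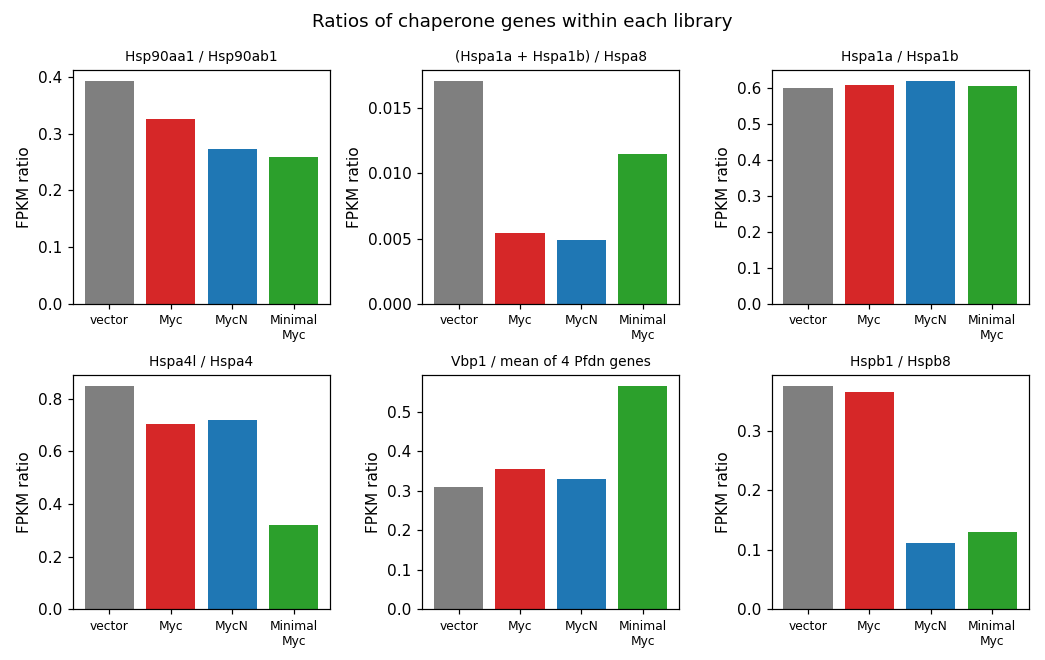
FPKM ratio of chaperone genes within each library, which does not depend on the scaling between libraries, with 1 bar per library and axes from 0. Hspa1a to Hspa1b is nearly the same in all 4 libraries (0.599 to 0.619), Hspa4l to Hspa4 is lowest and Vbp1 to the 4 Pfdn genes highest in Minimal Myc (0.320 and 0.565), and Hspb1 to Hspb8 is low in MycN and Minimal Myc (0.111 and 0.129).

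Among J-domain proteins, which deliver clients to Hsp70, 3 of 5 were highest in MycN in unscaled FPKM, beside 29% of all genes. With the authors' scaling 0 of 5 were, beside 6.31% of all genes, a share at which 0 is no result about them. Dnaja2 was 56.6 FPKM with vector, 88.7 with Myc, 103 with MycN and 74.0 with Minimal Myc. Dnajb1, the partner of inducible Hsp70, was 25.3, 37.1, 38.8 and 28.4 FPKM. Dnajb4 was 11.9, 13.3, 16.8 and 11.6 FPKM. Minimal Myc was the nearest to vector for these 3 genes in both tables. Dnaja1 followed Hspa8 instead, at 28.9 FPKM with vector, 63.1 with Myc, 46.8 with MycN and 61.6 with Minimal Myc, and was at least 2-fold higher in Myc and Minimal Myc. Dnajb6, which holds back aggregation of polyglutamine proteins, was 70.3, 103, 92.5 and 111 FPKM.

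The small heat shock proteins did not follow the chaperonin. Hspb1, which binds unfolding proteins and actin filaments, was 20.3 FPKM with vector, 20.3 with Myc, 6.93 with MycN and 13.1 with Minimal Myc. Its log2 difference from vector was -0.0025 in Myc, -1.43 in MycN, at 0.341 of vector, and -0.60 in Minimal Myc. In the scaled table these were 0.99, -1.09 and -0.26. MycN was therefore below vector by at least 2-fold in both tables. Hspb8, which acts with Bag3 to send damaged proteins to autophagy, was 54.3, 55.8, 62.7 and 102 FPKM. Bag3 was 17.8, 23.2, 19.3 and 16.8 FPKM. The partners Hspb8 and Bag3 thus went apart in Minimal Myc, which held the highest Hspb8 in both tables and the lowest Bag3 in unscaled FPKM alone. The ratio of Hspb1 to Hspb8 was 0.375 with vector, 0.364 with Myc, 0.111 with MycN and 0.129 with Minimal Myc. Hsf1, the heat shock transcription factor, was 30.5 FPKM with vector, 44.5 with Myc, 50.8 with MycN and 51.2 with Minimal Myc, without reaching 2-fold in any comparison of unscaled FPKM.

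Promoter windows, from 250 bases before to 50 after a start, were matched for 31 of the 37 genes by symbol in RefSeq (GRCm38.p6). Cct4, Pfdn1, Hsp90aa1, Hsp90ab1, Hspa8 and Hsf1 had no entry. A heat shock element of 3 units was TTC and GAA in alternation, with 2 bases of any kind between them and starting with either. It occurred on either strand in windows of 3 of the 31 genes. The share was 0.662% of all 27025 genes with a window and 0.582% of those that passed the filter. The elements are shown because their genes carry the longest match to the Hsf1 motif. The match is in capitals (overlapping matches merged), and each is read along its gene's strand.
Chordc1, chr9:18292258-18292290, plus strand: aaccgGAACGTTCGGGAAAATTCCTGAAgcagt
Dnajb6, chr5:29735847-29735869, plus strand: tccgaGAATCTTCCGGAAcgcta
Hsph1, chr5:149636283-149636305, minus strand: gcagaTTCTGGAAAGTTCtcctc
The Chordc1 match holds 3 overlapping elements and spans the transcript start. In unscaled FPKM Chordc1 and Hsph1 were highest in Myc and Dnajb6 in Minimal Myc, beside 29.6% and 35.8% of all genes. In the scaled table all 3 were highest in Myc, beside 83.1% of all genes, a share at which 3 of 3 is no result about them.

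A looser form with 2 units, TTCNNGAA or GAANNTTC on either strand, chosen after the values were seen and overlapping the first, occurred for 15 of 31 genes. It occurred for 17% of all genes with a window and 14.2% of those that passed the filter. It was present for all 3 small heat shock and Bag3 genes, 3 of 6 Hsp70 and Hsp110 genes, 3 of 6 Hsp90 group genes, 3 of 5 J-domain genes, 3 of 7 chaperonin genes and 0 of 4 prefoldin genes. This form is not particular to genes below vector in MycN, which were Hspa1a, Hspa1b and Hspb1. The other genes with it were above vector there, among them Fkbp4, the 1 gene at least 2-fold higher in MycN in unscaled log2(FPKM + 1). The following lines show it, in capitals, for the genes that were low in MycN.
Hspa1a, chr17:34972248-34972265, minus strand: tgctgGAAGATTCctggc
Hspa1b, chr17:34959330-34959347, minus strand: tgctgGAAGATTCctggc
Hspb1, chr5:135887797-135887814, plus strand: caagaGAAGTTTCcagat
Hspb1, chr5:135887817-135887834, plus strand: gggcaGAACCTTCctggc
The Hspa1a and Hspa1b stretches are identical, and the 250 bases before their starts are the same at 247 positions (98.8%). The E-box CACGTG, the sequence best known for Myc and Max binding, occurred in these windows for 1 of 31 genes, Hsph1. It occurred for 8.09% of all genes with a window and 12.1% of those that passed the filter, and the difference was not tested. That stretch is shown in the same way.
Hsph1, chr5:149636324-149636339, minus strand: agtggCACGTGgaggc
No match says only that these letters are not in the window, and binding was not measured here.

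Genes known to be inducible by heat were set beside the rest as a description. Of 14 inducible genes 4 stood at least 2-fold above vector with Myc, 1 with MycN and 2 with Minimal Myc. In MycN 2 were lower, Hspa1b and Hspb1. Hspa1a, at 0.417 of vector there in FPKM, did not reach the threshold on the log2(FPKM + 1) scale (-0.94). Over all genes 11.2%, 7.65% and 13.6% were higher and 1.86% were lower in MycN, so the inducible genes called higher in MycN and Minimal Myc are close to those shares. Of 23 other genes 8, 0 and 6 were higher and 0 lower. The median differences from vector were 0.71, 0.43 and 0.58 for inducible genes and 0.88, 0.58 and 0.84 for the others.

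Between the added proteins, MycN was above Myc in 6 of 37 genes in unscaled FPKM, beside 43.6% of all genes. It was above Myc in 0 in the scaled table, where the median over all genes was -0.66. In unscaled FPKM the median difference was -0.42, beside -0.06 over all genes. By 2-fold, 1 gene was lower in MycN, Hspb1, and 0 higher, beside 2.74% and 1.95% of all genes. All 8 chaperonin, 5 prefoldin and 8 Hsp90 group genes were below Myc. The 6 genes were Hspa2, Dnaja2, Dnajb1, Dnajb4, Hspb8 and Hsf1. The J-domain genes had a median of 0.06 against Myc, with 3 of 5 above it. In the scaled table the median over the 37 genes was -1.07 and 21 were at least 2-fold lower in MycN than in Myc, beside 19.9% of all genes.

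Minimal Myc lay above Myc in 9 of 37 genes in unscaled FPKM, beside 47.3% of all genes. It did so in 4 in the scaled table, where the median over all genes was -0.64. In unscaled FPKM the median difference was -0.16 beside -0.03 over all genes. On the log2(FPKM + 1) scale 0 genes differed by 2-fold, beside 4.48% higher and 2.16% lower over all genes. In FPKM without the pseudocount Hspa1b was 2.11 times, Hspa1a 2.09 times and Hspa2 0.448 times its level in Myc. The largest differences were in Hspa1b (0.95) and Hspa1a (0.87) above Myc, and Hspa4l (-0.86) and Hspa2 (-0.85) below it. Against MycN, Minimal Myc was higher in 28 of 37 genes, beside 53.3% of all genes, with a median of 0.26 beside 0.05. Hspa1b, Hspa1a and Vbp1 were at least 2-fold higher and Hspa2 lower, beside 6.94% and 3.69% of all genes. The genes below MycN were Dnaja2, Dnajb1, Dnajb4, Hspa2, Hspa4l, Hsph1, Hsp90aa1, Hsp90ab1 and Bag3, the Hsp90ab1 difference being -0.04.

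Other genes of cytosolic folding, from a separate list of 49 of which 46 passed the filter, gave 10 at least 2-fold higher and 0 lower in Myc, 1 and 1 in MycN, and 7 and 2 in Minimal Myc. Over all genes 11.2%, 7.65% and 13.6% were higher and 1.56%, 1.86% and 1.68% lower in the same order, so the count higher in Minimal Myc is near the share of all genes. Their medians were 0.67, 0.48 and 0.58. Cryab, a small heat shock protein like Hspb1, was 25.1 FPKM with vector, 42.7 with Myc, 11.3 with MycN and 5.70 with Minimal Myc. Cryab was thus below vector in the same libraries as Hspb1, MycN and Minimal Myc. Btf3, a subunit of the complex that meets chains at the ribosome, was 249.7, 677, 385 and 491 FPKM. Uxt, a prefoldin-like protein, was 8.94, 12.9, 9.53 and 25.7 FPKM, with Minimal Myc highest as for Vbp1. Clients of the chaperonin and tubulin cofactors differed less: of 22 genes 4 were at least 2-fold higher with Myc, 0 with MycN and 2 with Minimal Myc, and 1 (Tubb3) was lower in Minimal Myc, with medians of 0.54, 0.15 and 0.51. Tbca, a tubulin cofactor, was 160.3, 380.4, 244 and 347 FPKM, and Tubb3, a tubulin, was 20.6, 12.6, 16.3 and 8.88.

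For genes of folding in other compartments and of the proteasome, the same counts are given side by side, with no test of a difference, and are read against the 11.2%, 7.65% and 13.6% of all genes that were higher in Myc, MycN and Minimal Myc. Of these genes 0 were 2-fold lower, beside 1.56% to 1.86% of all genes, a share at which 0 is no result about lists of this size. Of 20 endoplasmic reticulum chaperone genes 3, 0 and 8 were at least 2-fold higher in Myc, MycN and Minimal Myc, with medians of 0.74, 0.31 and 0.95. Of 18 mitochondrial genes 3, 3 and 4 were higher, with medians of 0.69, 0.47 and 0.62. Hspd1, the mitochondrial chaperonin, was 149.9 FPKM with vector, 532 with Myc, 393 with MycN and 491 with Minimal Myc. Its differences from vector (1.82, 1.39 and 1.71) exceeded those of every subunit of the cytosolic chaperonin in the same library. Of 20 proteasome genes 5, 0 and 5 were higher, with medians of 0.86, 0.48 and 0.87.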

How the data were processed

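RNA-seq gave 1 library each for vector, Myc, MycN and Minimal Myc. The submitters' processing notes list TopHat2 2.0.11, Cufflinks 2.2.0 and the genome build mm9, without saying what each did. The authors deposited FPKM in 2 tables of 26608 rows; in the second each library is multiplied by 1 factor (1, 2.04, 1.30 and 1.28 in the order above), and 32 NanoString rows, none of a chaperone gene studied here, were left out. Depth is unknown from FPKM, so no counting interval is given.

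Identical rows of a gene were merged and differing ones summed (189 genes, none studied here). Genes whose mean reached 1 FPKM were kept, without 310 small RNA genes. Differences are of log2(FPKM + 1), which understates those of low genes. The calculation was tested on simulated data (Python 3.11.15, pandas 2.3.3). No coordinates of the deposited table were used; promoter windows come from RefSeq (GRCm38.p6), and shared 50-base stretches from GENCODE M21 transcripts, found for 36 of the 37 genes. Genes and lists were chosen with earlier results of these data known. Every chaperone gene of the set is named, and up to 3 genes of another list by size of difference. The ratios of Hspa4l to Hspa4, Vbp1 to Pfdn genes, Hspb1 to Hspb8 and Hspa1a to Hspa1b were chosen after the values were seen. Alternatives were another pseudocount, filter, table, centring and row choice.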

Additional observations from a re-analysis of the deposited data

How the results depend on the processing

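No paired analysis was possible because each culture has 1 library, and no library could be left out. A median was read as moved past 0.1 (log2) and a count past 1.5-fold. In the authors' scaled table the 37 genes had a median difference from vector of 1.91 (Myc), 0.93 (MycN) and 1.14 (Minimal Myc). Over all genes it was 1.41, 0.75 and 0.79. Of the 37 genes 34, 16 and 24 were at least 2-fold higher, beside 76.8%, 26.7% and 32.7% of all genes. In MycN 1 was lower, beside 1.24% of all genes. In the same table MycN against Myc had a median of -1.07 with 21 genes lower, beside -0.66 and 19.9% over all genes. Minimal Myc against Myc had a median of -0.82 with 9 lower, beside -0.64 and 17.8% over all genes. Centred on the all-gene median, the medians against vector were 0.41, 0.13 and 0.31. Then 0 genes were higher in each, beside 1.87%, 1.86% and 3.71% of all genes. Lower were 0 in Myc, 3 in MycN (Hspa1a, Hspa1b and Hspb1) and 1 in Minimal Myc (Hspb1), beside 4.38%, 4.19% and 4.68%. With a pseudocount of 0.1, 2 genes were higher in MycN against vector, and 2 were higher and 1 lower in Minimal Myc against Myc. With a mean of at least 5 FPKM, 0 were lower in Minimal Myc against MycN. With a mean of at least 20 FPKM, chosen after the values were seen, 0 were lower in MycN against vector, MycN against Myc and Minimal Myc against MycN, and 1 was higher in the last; fewer genes enter under these filters, and Hspb1, Hspa1a, Hspa1b and Hspa2 are among those left out at 20 FPKM. No filter, and the highest row of a gene, could not move the values of the 37 genes. All 37 passed the filter, and none had rows that differ. Without the filter the all-gene medians against vector were 0.03 with Myc, 0.04 with MycN and 0.01 with Minimal Myc. The shares of all genes at least 2-fold higher were then 5.87%, 4.08% and 7.18%. The within-library ratios of Hsp90 and Hsp70 genes and the chaperonin spread were the same in both tables, which differ by 1 factor per library. Unknown depth limits the low genes Hspa1a, Hspa1b and Hspa2 most.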
